A study of Homo sapiens with 9 samples.

Results

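The enzymes that write and erase DNA methylation were followed in SW480 cells, an established human colorectal adenocarcinoma line, kept at low oxygen and treated with sulforaphane. The set held 7 genes, chosen by symbol from the 41041 genes of the expression table: the methyltransferases DNMT1, DNMT3A and DNMT3B, their targeting partner UHRF1, and the oxygen-dependent dioxygenases TET1, TET2 and TET3. Poly(A) RNA was sequenced from 9 libraries in 3 groups of 3 biological replicates. All 9 were held at 1% oxygen for 48 h. The control group received no drug, the SFN group received 25 µM sulforaphane (an isothiocyanate found in broccoli and related plants), and the third group is named SFN+5-FU after its labels. 5-Fluorouracil is a pyrimidine analogue used against colorectal cancer. The series text lists this group as sulforaphane with 5-fluorouracil, while the treatment protocol names it "sulforaphiluracil (SFN + 5-FU)" and states no dose for it. Whether these cells received 25 µM sulforaphane plus the second drug is therefore not known, and in SFN+5-FU against SFN the second drug and a different sulforaphane dose cannot be told apart. Cells in normal oxygen and cells given 5-fluorouracil alone were not analysed here, so neither the response to oxygen nor that to 5-fluorouracil by itself could be measured.

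Maintenance methylation copies the methyl marks of the parental DNA strand onto the new one after replication. UHRF1 binds the hemimethylated site and recruits DNMT1, which adds the missing mark. DNMT3A and DNMT3B set marks on unmethylated DNA. The TET enzymes oxidise the methyl group with oxygen, iron and alpha-ketoglutarate, and base excision repair can then restore an unmethylated base. In colorectal tumours, global loss of methylation is known to accompany dense methylation at some promoters. DNA methylation itself was not measured in these libraries.

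Maintenance and de novo genes moved in opposite directions. UHRF1 about doubled under both treatments and DNMT1 rose to 1.28 and 1.25 times its control mean, whereas the control mean of DNMT3A was 2.25 and 2.49 times that under treatment and DNMT3B also fell. TET1 and TET2, both of low level, lay below control in every treated library. Among tested genes, 25.8% lay below control without overlap in SFN and 33.2% in SFN+5-FU. TET3, the TET gene of highest level, did not pass the test in any comparison. Of the 5 members with enough expression to be tested, 2 rose and 2 fell in SFN against control, where 50.0% of the 12662 genes tested changed (27.5% higher and 22.5% lower). The same count, 2 higher and 2 lower, was found in SFN+5-FU against control, where 66.2% of genes changed (38.3% higher and 28.0% lower). Without SFN replicate 2, a library described with the expression values, the members' counts were 2 and 2 again in each, with 56.9% and 74.7% of genes called. Calls were thus common among all genes, and the 2 comparisons share the 3 control libraries.

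The RefSeq promoters of GRCh38.p14 (300 bases, from 250 before to 50 after each start) were searched because UHRF1 and DNMT1 are known to be transcribed with the DNA replication genes, many of which are driven by E2F factors. All 7 members had an entry, 18 promoters in all. An E2F-type sequence was taken as TTTCCCGC, TTTCGCGC, TTTGCCGC or TTTGGCGC on either strand. It stood in 2 of the 3 UHRF1 promoters, in the single DNMT1 promoter and in 0 of the 14 promoters of the other members, against 1164 of all 35116 promoters (3.31%). Of 31 G1/S and replication genes with an entry, 14 held it in any of their promoters. That is a count of genes, unlike the share of promoters above. The matches follow, 5′ to 3′ on the gene's strand with the match in capitals. The first UHRF1 stretch and the DNMT1 stretch are cut to 30 bases because they overlap annotated 5′ exons.
UHRF1, chr19:4909476-4909505, plus strand: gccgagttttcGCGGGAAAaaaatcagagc
UHRF1, chr19:4909938-4910037, plus strand: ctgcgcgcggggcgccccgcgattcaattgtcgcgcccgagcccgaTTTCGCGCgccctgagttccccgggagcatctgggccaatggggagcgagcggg
DNMT1, chr19:10194937-10194966, minus strand: catcggtttccGCGCGAAAagccggggcgc

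The UHRF1 matches begin 14 and 160 bases upstream of their respective start sites, and the DNMT1 match begins 2 bases upstream and runs over the start. In the GENCODE release 29 annotation the second UHRF1 stretch touches 0 exon bases of that gene and lies within an intron. The E-box CACGTG, which is its own reverse complement and is bound by factors such as MYC, was the second sequence searched. It stood in 4 of the 18 member promoters and in 2548 of all promoters (7.26%). DNMT3A held it in a pair of overlapping windows at an internal promoter, TET2 once and TET3 at 2 positions of 1 promoter. These stretches are shown because they hold the E-box matches of the members.
DNMT3A, chr2:25252337-25252436, minus strand: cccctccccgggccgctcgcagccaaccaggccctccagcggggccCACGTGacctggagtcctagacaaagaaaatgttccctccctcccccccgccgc
TET2, chr4:105145781-105145880, plus strand: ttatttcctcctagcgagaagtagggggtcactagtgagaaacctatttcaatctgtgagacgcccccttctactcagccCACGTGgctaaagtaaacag
TET3, chr2:73984797-73984896, plus strand: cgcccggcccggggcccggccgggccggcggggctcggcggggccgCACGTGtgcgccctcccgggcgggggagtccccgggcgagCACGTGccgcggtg
A match describes letters only, and binding was not measured.

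The expression values are FPKM, fragment counts scaled to transcript length and to the library total. They summed to between 259184 and 272235 per library, and the read depth cannot be recovered from them. One library stood apart from its label's group: on log2(FPKM + 1) values of the tested genes, SFN replicate 2 correlated with the 3 SFN+5-FU libraries at 0.993 and with the other SFN libraries at 0.963 and 0.968, while SFN replicates 1 and 3 correlated at 0.990. The labels were used as given, and whether that of SFN replicate 2 is right cannot be told from these values, which bears on each SFN mean and on SFN+5-FU against SFN. Some of the results that rest on this library are given with and without it, others only with it. Of the 9 colorectal epithelial markers, KRT8, KRT18, KRT19 and EPCAM were abundant and LGR5 was at or below 0.13 FPKM. Their summed level was 2595 to 2635 FPKM in control, 1775 to 2396 in SFN and 1713 to 1729 in SFN+5-FU, and its part in the members' changes was not tested. The 11 markers of leukocytes, endothelium and fibroblasts found in the table summed to 3.04 to 3.61, 3.40 to 6.46 and 6.61 to 10.03 FPKM. Among them CD68 was 0.48 to 0.61, 2.05 to 5.57 and 5.59 to 8.96 FPKM, while COL1A1 was 1.55 to 1.99, 0.57 to 0.67 and 0.68 to 0.74 and VWF was 0.75 to 0.81, 0.17 to 0.48 and 0.15 to 0.19. PTPRC and CDH5, which define leukocytes and endothelium, were 0 in all 9 libraries. In these bulk libraries, fewer cells of a type and less RNA per cell cannot be told apart.

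UHRF1 (ENSG00000276043), the reader of hemimethylated DNA, stood at 9.63, 11.24 and 14.56 FPKM in the control libraries. It stood at 21.95, 24.85 and 24.83 FPKM in SFN and at 24.66, 25.04 and 24.05 FPKM in SFN+5-FU. Every treated library was above every control library, as for 31.6% of tested genes in SFN and 45.5% in SFN+5-FU, and control replicate 3 was the highest control. The mean was 2.02 times control in SFN and 2.08 times control in SFN+5-FU. On the log2(FPKM + 1) scale the difference was 0.97 (SE 0.124, 95% interval 0.69 to 1.25, limma adjusted p = 0.000287) in SFN and 1.02 (0.74 to 1.29, adjusted p = 0.000134) in SFN+5-FU. That difference exceeded the one of 98.2% of tested genes in the first comparison and of 95.4% in the second. The other called members were less extreme: the DNMT1 difference exceeded that of 76.1% and 64.9% of tested genes. Differences below that of DNMT3A were found for 7.75% and 10.5%, and below that of DNMT3B for 16.07% and 16.95%. Without SFN replicate 2 the SFN difference of UHRF1 was 0.94 (limma adjusted p = 0.000415).

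DNMT1 (ENSG00000130816), the maintenance methyltransferase, moved the same way by less. Its control values were 11.21, 11.83 and 12.77 FPKM, its SFN values 14.92, 15.12 and 15.86, and its SFN+5-FU values 15.13, 14.98 and 14.65. Again every treated library was above every control, as for 31.6% of tested genes in SFN and 45.5% in SFN+5-FU. Control replicate 3 was the highest control here too. The mean was 1.28 times control in SFN (log2 difference 0.33, SE 0.0642, interval 0.19 to 0.48, limma adjusted p = 0.00246) and 1.25 times control in SFN+5-FU (0.30, interval 0.16 to 0.45, adjusted p = 0.00275). The SFN+5-FU difference depended on scaling: it was 0.18 with quantile normalization (adjusted p = 0.0375), 0.20 with median-of-ratios scaling (adjusted p = 0.0215) and 0.45 with a correction for GC content and transcript length (adjusted p = 0.000336). DNMT1 overlaps S1PR2 on the same strand, a receptor gene at 1.44 to 2.69 FPKM, and how fragments shared by both were assigned is not given in the sources used here. The ratio of UHRF1 to DNMT1 FPKM lay between 0.859 and 1.14 in control, between 1.47 and 1.64 in SFN and between 1.63 and 1.67 in SFN+5-FU, with no overlap between control and either treatment. How common this is among ratios of other genes was not tested.

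DNMT3A (ENSG00000119772), a de novo methyltransferase, went the other way. Its values were 1.85, 2.07 and 1.93 FPKM in control, 1.01, 0.78 and 0.81 in SFN, and 0.75, 0.76 and 0.84 in SFN+5-FU. All 6 treated libraries were below all 3 controls, as for 25.8% of tested genes in SFN and 33.2% in SFN+5-FU. The control mean was 2.25 times the SFN mean (log2 difference -0.66, SE 0.0776, interval -0.84 to -0.49, limma adjusted p = 0.00019) and 2.49 times the SFN+5-FU mean (-0.73, interval -0.90 to -0.55, adjusted p = 6.88e-05). At this level the added constant of 1 shrinks the difference: with a constant of 0.1 it was -1.09 and -1.21. DNMT3A passed the filter of a mean of 1 FPKM through its control libraries, the SFN and SFN+5-FU means being 0.867 and 0.783 FPKM. Its call also held in the fit with no such filter.

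DNMT3B (ENSG00000088305), the other de novo enzyme, stood at 1.93, 2.14 and 1.92 FPKM in control, near the level of DNMT3A. It stood at 1.43, 1.25 and 1.12 FPKM in SFN and at 1.32, 1.00 and 1.03 FPKM in SFN+5-FU. The treated libraries were all below the controls, as for 25.8% of tested genes in SFN and 33.2% in SFN+5-FU. The log2 difference was -0.40 (SE 0.0889, interval -0.60 to -0.20, limma adjusted p = 0.00497) in SFN, where the control mean was 1.58 times higher, and -0.50 (interval -0.70 to -0.30, adjusted p = 0.000985) in SFN+5-FU, where it was 1.79 times higher. With a constant of 0.1 these differences were -0.62 and -0.79. The ratio of DNMT3A to DNMT3B FPKM was 0.959 to 1.01 in control, 0.624 to 0.723 in SFN and 0.568 to 0.816 in SFN+5-FU. Summed over the 3 methyltransferases, the level was 15.9 ± 0.826 FPKM (SD, n = 3) in control, 17.4 ± 0.326 in SFN and 16.8 ± 0.347 in SFN+5-FU. DNMT1 made up 75.1% ± 1.57 of this sum in control, 87.8% ± 1.64 in SFN and 88.7% ± 0.761 in SFN+5-FU. DNMT3L, the inactive partner of the de novo enzymes, was at most 0.03 FPKM in any library.

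**Figure D1:**
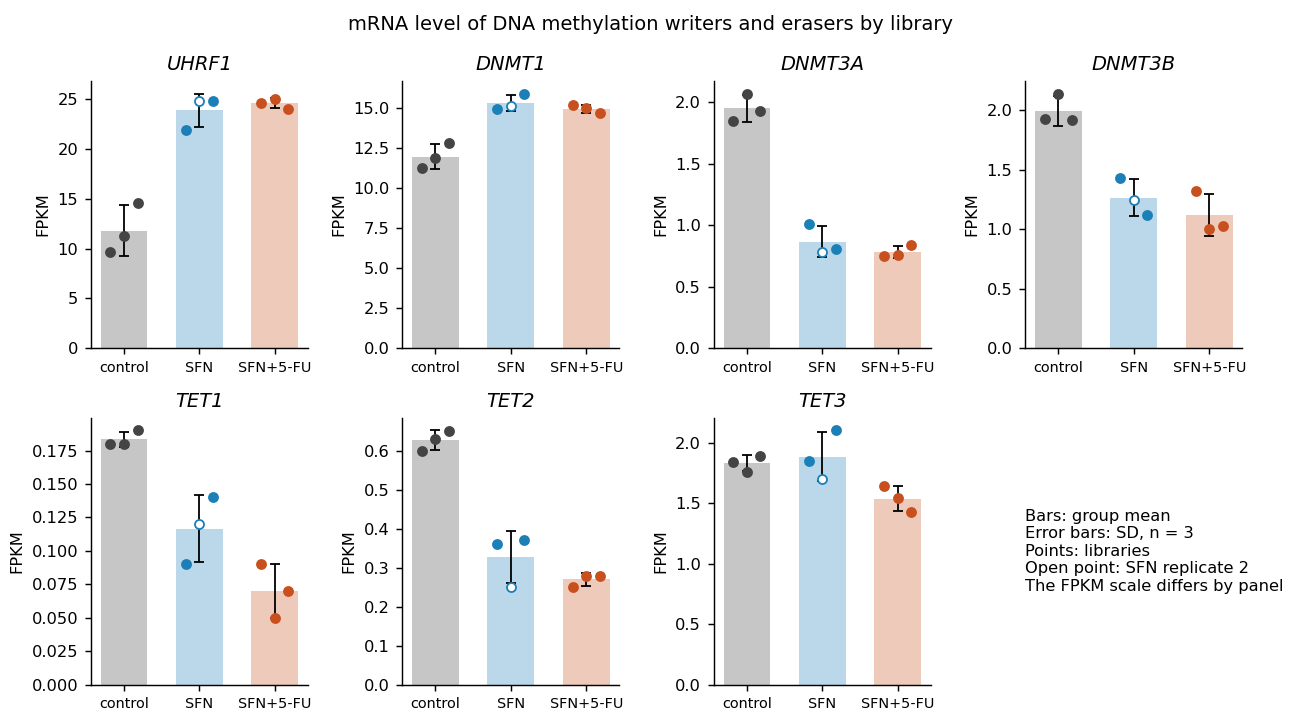
FPKM of the 7 genes in control, SFN and SFN+5-FU libraries, with bars for the group mean, error bars for the SD (n = 3), a point for each library and an open point for SFN replicate 2; the scale differs by panel. UHRF1 and DNMT1 are higher in all 6 treated libraries, and DNMT3A, DNMT3B, TET1 and TET2 are lower, while TET3 overlaps between control and SFN.

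TET3 (ENSG00000187605) was the TET gene of highest FPKM in all 9 libraries. It stood at 1.84, 1.76 and 1.89 FPKM in control, 1.85, 1.70 and 2.10 in SFN, and 1.64, 1.54 and 1.43 in SFN+5-FU. The SFN values spread on both sides of control, and the SFN+5-FU values were all below both other groups. In SFN+5-FU, 33.2% of tested genes were below control without overlap and 10.3% below SFN. No comparison passed: the log2 difference was 0.02 (interval -0.15 to 0.20, limma adjusted p = 0.807) in SFN, where its sign turned with median-of-ratios scaling (-0.02). It was -0.16 (interval -0.33 to 0.02, adjusted p = 0.0981) in SFN+5-FU, where it passed with median-of-ratios scaling (-0.23, adjusted p = 0.0308) and turned with a correction for GC content and transcript length (0.09, adjusted p = 0.305). That correction gave a call higher in SFN (0.21, adjusted p = 0.0369).

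TET2 (ENSG00000168769) and TET1 (ENSG00000138336) were below the filter of a mean of 1 FPKM. TET2, the TET enzyme often mutated in blood cancers, stood at 0.60, 0.63 and 0.65 FPKM in control, 0.36, 0.25 and 0.37 in SFN, and 0.25, 0.28 and 0.28 in SFN+5-FU. The treated libraries were all below control for both treatments, as for 25.8% of tested genes in SFN and 33.2% in SFN+5-FU. These shares leave out genes below the filter. For a single gene this gives an exact two-sided permutation p of 0.10, the smallest that 3 against 3 allow. In the limma fit without a filter the log2 difference was -0.30 (SE 0.0605, adjusted p = 0.0109) in SFN and -0.36 (adjusted p = 0.00293) in SFN+5-FU. Of the 36755 genes in that fit, 3822 were called lower in SFN and 5128 in SFN+5-FU.

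TET1 was nearly silent, at 0.18, 0.18 and 0.19 FPKM in control, 0.09, 0.12 and 0.14 in SFN, and 0.09, 0.05 and 0.07 in SFN+5-FU. Its treated values were also all below control (exact permutation p = 0.10 for each treatment), against the same shares of tested genes as for TET2. Without the filter the limma difference was -0.08 (adjusted p = 0.0609) in SFN and -0.15 (adjusted p = 0.00407) in SFN+5-FU. The table gives FPKM to 2 decimals, so each step of 0.01 is a sizeable share of these values. COX20P1, a pseudogene that overlaps TET1 on the same strand, was higher than TET1 itself (0.51 to 1.53 FPKM). Summed over TET1, TET2 and TET3, the level was 2.57 to 2.73 FPKM in control, 2.07 to 2.61 in SFN and 1.78 to 1.98 in SFN+5-FU, and the TET3 share of it was 69.3% ± 0.878, 81.0% ± 0.973 and 81.8% ± 1.32.

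SFN+5-FU against SFN gave no called change in any of the 5 tested members. In this comparison limma called 1 of 12662 genes, 0.00790%, and at an unadjusted p of 0.05 the only member was TET3, against 31.4% of all tested genes. The difference was 0.04 (interval -0.24 to 0.32) for UHRF1, with its sign turning under quantile normalization (-0.02), and -0.03 (interval -0.18 to 0.11) for DNMT1. It was -0.06 (interval -0.24 to 0.11) for DNMT3A and -0.10 (interval -0.30 to 0.10) for DNMT3B. For those 4 genes the SFN and SFN+5-FU libraries overlapped. These bounds are not adjusted and are not a limit of detection, since a change beyond them could also go uncalled after adjustment. TET3 was -0.18 (interval -0.36 to -0.01, adjusted p = 0.149, unadjusted p = 0.0421). Leaving out SFN replicate 2 raised the number of called genes to 6478 (51.2%, with 21.4% lower), of which TET3 was one (-0.23, adjusted p = 0.0285), and the other 4 members were still not called.

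**Figure D2:**
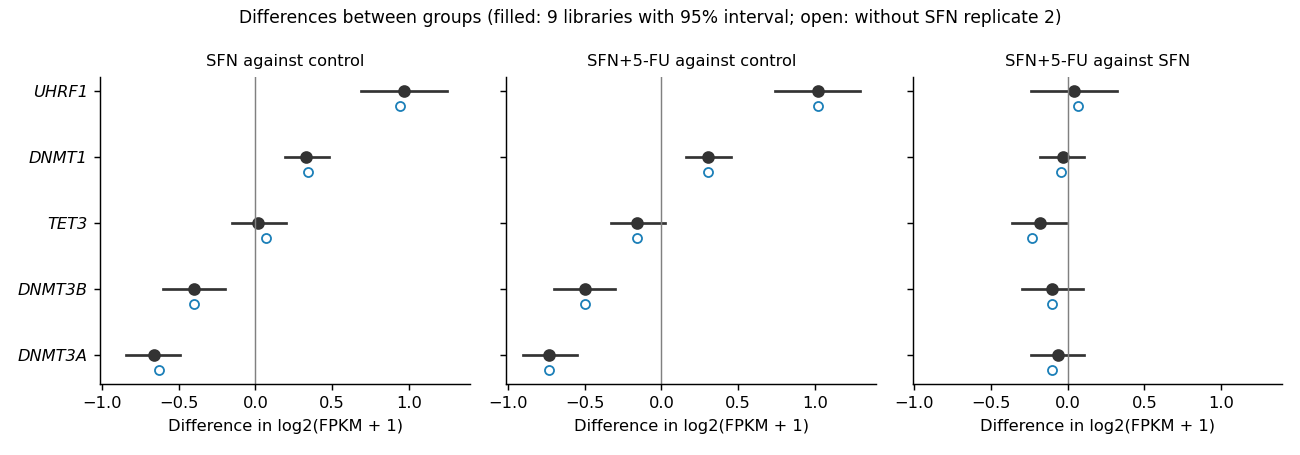
Difference in log2(FPKM + 1) of the 5 tested genes in the 3 comparisons, with filled points and 95% intervals from the fit to 9 libraries and open points for the fit without SFN replicate 2. UHRF1 (0.97 and 1.02) and DNMT1 (0.33 and 0.30) lie above 0 and DNMT3A and DNMT3B below 0 against control; the open points stay close to the filled ones.

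The members were set beside the G1/S and DNA replication genes, since maintenance methylation is tied to S phase. Of 36 such genes tested, 28 rose and 0 fell in SFN and 32 rose and 0 fell in SFN+5-FU (29 and 32 rose without SFN replicate 2). Over all tested genes, 27.5% rose and 22.5% fell in SFN, and 38.3% rose and 28.0% fell in SFN+5-FU. Their median log2 difference was 0.55 in SFN and 0.69 in SFN+5-FU, against 0.05 and 0.10 for all tested genes. Without SFN replicate 2 the SFN median was 0.45, against 0.02 for all tested genes. In the values from here on, which are differences in log2(FPKM + 1) against control, SFN is given before SFN+5-FU. MCM2, a subunit of the replicative helicase, rose by 0.69 and 0.78 (adjusted p = 9.26e-05 and 3.02e-05), and E2F1, which drives entry into S phase, rose by 0.69 and 0.76 (adjusted p = 0.000416 and 0.000149). ORC6, of the origin recognition complex, rose by 1.13 and 1.84. Its SFN values were 8.24, 17.97 and 10.58 FPKM, replicate 2 being the highest. Summed FPKM of the list was 758.5 to 910 in control, 1062 to 1334 in SFN and 1348 to 1381 in SFN+5-FU. Control replicate 3, the highest control for UHRF1 and DNMT1, was also the highest control of this sum, and the part of S-phase content in the values of both genes was not tested.

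Like patterns were sought among 6804 genes by Pearson's r of log2(FPKM + 1) over the 9 libraries, which are 3 groups and not independent points. The most like UHRF1 were MCM4 (0.995), SNRPC (0.993) and BECN1 (0.993), and the most like DNMT1 were TRIP13 (0.991), PIGW (0.990) and NAA20 (0.986). For DNMT3A they were TRIOBP (0.996), PACS1 (0.995) and MVD (0.994), for DNMT3B KRT74 (0.994), PSPH (0.993) and IFITM3 (0.988), and for TET3 SMURF2 (0.965), CENPF (0.965) and PARP4 (0.963). MCM4 is itself a helicase subunit of the G1/S list.

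**Figure D3:**
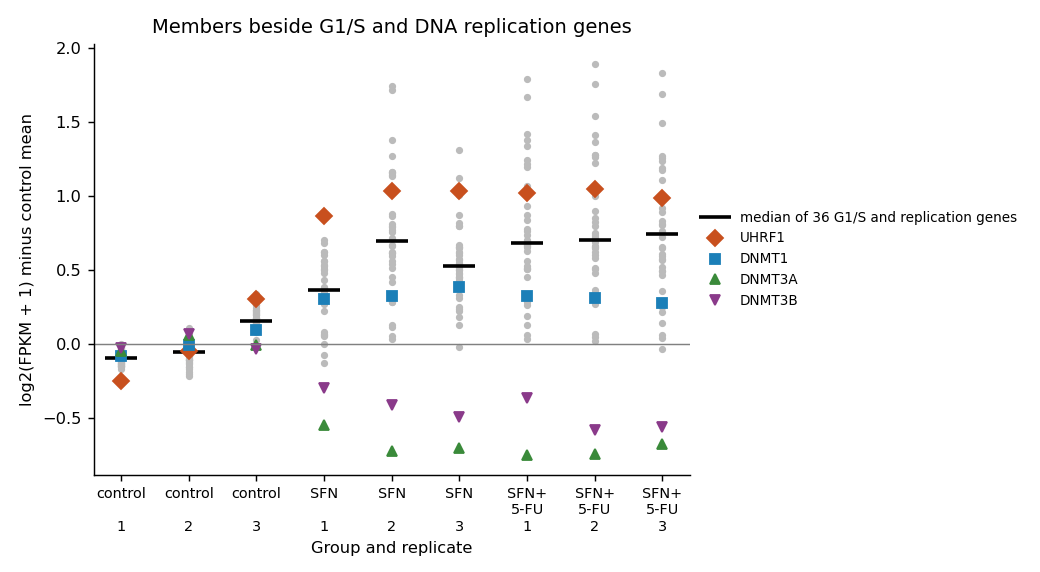
log2(FPKM + 1) minus the control mean in each library for UHRF1, DNMT1, DNMT3A and DNMT3B (coloured) and 36 G1/S and replication genes (grey points, black bars for their median). UHRF1 and DNMT1 lie above 0 with the list in the 6 treated libraries, and DNMT3A and DNMT3B lie below 0 there.

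Partners of maintenance methylation did not move as one group. The counts of this and each later list stand against 27.5% of all tested genes called higher and 22.5% lower in SFN. In SFN+5-FU these shares were 38.3% and 28.0%. Of 9 tested, 4 rose and 2 fell in SFN (3 rose and 2 fell without SFN replicate 2, 1 rose and 1 fell without control replicate 1 or without control replicate 2, and 3 rose and 1 fell without SFN replicate 3), and 3 rose and 4 fell in SFN+5-FU. Without either of those controls the SFN calls of PCNA, HELLS, PCLAF and EHMT2 were lost. CDCA7, which anchors the remodeller HELLS on chromatin, stood at 6.89 to 8.76 FPKM in control, 15.19, 10.71 and 16.18 in SFN and 9.18 to 10.27 in SFN+5-FU. It rose in SFN by 0.77 (limma adjusted p = 0.00198) and was 0.30 higher in SFN+5-FU (adjusted p = 0.0879; 0.00812 without SFN replicate 2). HELLS itself rose by 0.52 and 0.84 (adjusted p = 0.0193 and 0.00117), by 0.33 in SFN without replicate 2. PCNA, the replication clamp that tethers DNMT1, rose by 0.44 and 0.80, and PCLAF, a PCNA-bound factor in DNMT1 recruitment, by 0.34 and 0.81. The SFN call of PCLAF was also lost without SFN replicate 2 (0.19, limma adjusted p = 0.0524), and the SFN difference of PCNA there was 0.29 (adjusted p = 0.0258).

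LIG1, the replicative ligase whose methylated form UHRF1 binds, fell while the replication genes rose: 4.99, 4.72 and 5.73 FPKM in control, 3.80, 3.43 and 4.20 in SFN, and 3.07, 3.13 and 3.11 in SFN+5-FU. Its groups did not overlap (limma log2 difference -0.35, adjusted p = 0.0085, and -0.58, adjusted p = 0.000398). All treated libraries were below all controls for 25.8% of tested genes in SFN and 33.2% in SFN+5-FU. SFN+5-FU was below SFN without overlap for 10.3%. EHMT2, a histone H3 lysine methyltransferase that also methylates LIG1, fell (-0.44 and -0.83; adjusted p = 0.0254 and 0.00072) and stood at -0.27 in SFN without replicate 2. USP7, the deubiquitinase that stabilises UHRF1 and DNMT1, did not pass in SFN (-0.06) and fell by 0.28 in SFN+5-FU (adjusted p = 0.0476), a call kept in 11 of 21 alternative analyses. UHRF2, the paralogue of UHRF1, differed by -0.06 and 0.01 and passed in neither. TRDMT1, a tRNA methyltransferase related in sequence, was at most 0.20 FPKM.

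Of 8 tested readers of methylated CpG, 1 rose and 2 fell in SFN and 4 rose and 2 fell in SFN+5-FU (2 and 2, and 5 and 2, without SFN replicate 2). In SFN the number that rose was 0 without any 1 of the controls and 3 without SFN replicate 1, and 1 fell without control replicate 1, control replicate 2 or SFN replicate 3. In SFN+5-FU 1 fell without control replicate 2 or SFN+5-FU replicate 1. ZBTB4, a zinc-finger reader, fell (-0.53 and -0.63; limma adjusted p = 0.000774 and 0.000189). MBD1 rose by 0.34 and 0.63 (adjusted p = 0.0232 and 0.000705), but its SFN call was lost without any 1 of the controls and held in 16 of 21 alternatives. MBD3 and ZBTB38 rose in SFN+5-FU by 0.37 and 0.84. MBD2 was 0.15 and 0.17 higher and did not pass (adjusted p = 0.107 and 0.0692).

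In the excision repair arm, with the GADD45 family and TET partners, 6 of 16 tested genes rose and 3 fell in SFN, and 8 rose and 3 fell in SFN+5-FU (7 and 5, and 11 and 3, without SFN replicate 2). TDG, the glycosylase that removes TET-oxidised bases, rose by 0.41 and 0.58 (limma adjusted p = 0.019 and 0.00239), with 16 of 20 alternatives keeping the SFN call. MBD4, which removes thymine at deaminated methyl-CpG and is also among the readers, was 0.28 higher in SFN (adjusted p = 0.098) and rose by 0.59 in SFN+5-FU (adjusted p = 0.00349). SMUG1, another glycosylase, rose by 0.48 and 0.57, and PARP1, the strand-break sensor, by 0.49 and 0.48. APEX1, the abasic-site endonuclease, rose by 0.19 in SFN (adjusted p = 0.0248; 14 of 21 alternatives) and was 0.13 higher in SFN+5-FU (adjusted p = 0.0798).

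CXXC5, a zinc-finger protein that binds CpG and TET2, had the largest fall of this list, from 53.5 to 58.7 FPKM in control to 32.2, 24.5 and 29.2 in SFN and 21.3 to 23.5 in SFN+5-FU. The log2 difference was -0.96 (limma adjusted p = 9.11e-05) and -1.27 (adjusted p = 1.54e-05). OGT, the sugar transferase that binds TET2 and TET3, fell (-0.40 and -0.69; adjusted p = 0.00947 and 0.000348). GADD45A and GADD45B, stress-induced proteins linked to demethylation, were the genes of the cycle that rested most on SFN replicate 2. GADD45A stood at 24.6 to 26.4 FPKM in control, 14.53, 46.54 and 13.49 in SFN and 44.57, 48.64 and 50.46 in SFN+5-FU. The second SFN library was inside the range of SFN+5-FU, and the other SFN libraries were below all controls. With all libraries GADD45A did not pass (-0.25, adjusted p = 0.597, in SFN and 0.90, adjusted p = 0.0568, in SFN+5-FU), and without SFN replicate 2 it was lower in SFN (-0.80, adjusted p = 2.67e-05) and higher in SFN+5-FU (0.90, adjusted p = 1.71e-06). GADD45B rose by 1.49 in SFN+5-FU (adjusted p = 0.00638), and in SFN it was 0.32 higher (adjusted p = 0.506) or, without SFN replicate 2, lower (-0.24, adjusted p = 0.0282). GADD45G, the third member of the family, rose by 1.15 in SFN+5-FU (adjusted p = 0.00174).

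**Figure D4:**
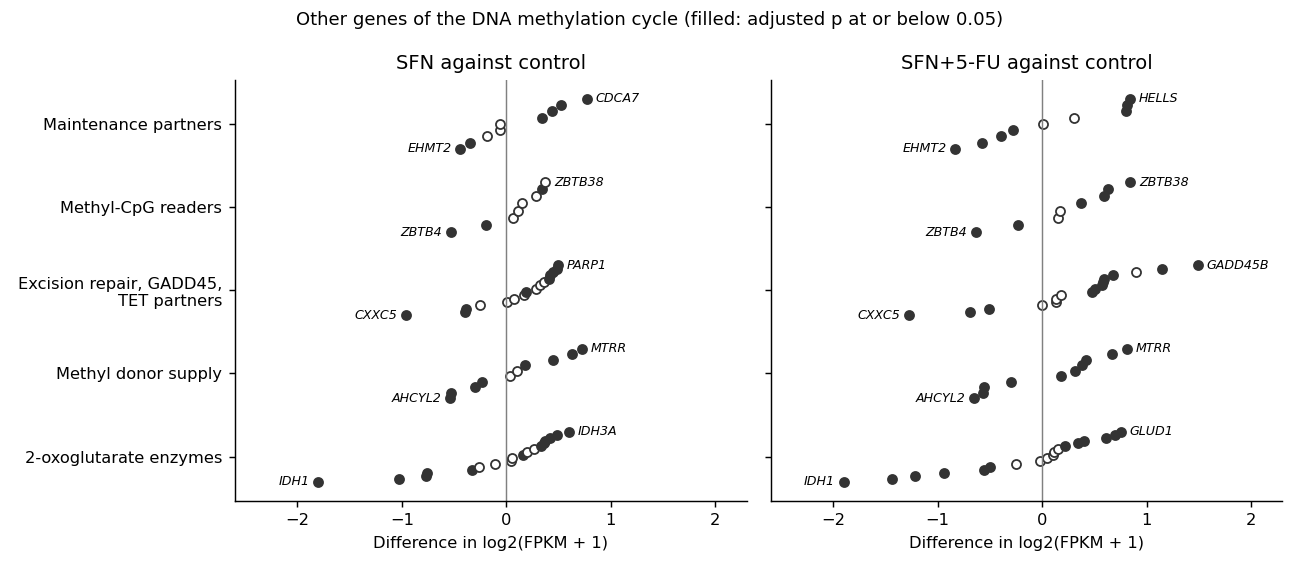
Difference in log2(FPKM + 1) against control in SFN (left) and SFN+5-FU (right) for each tested gene of 5 lists, a point per gene, filled where the limma adjusted p is at or below 0.05, with the highest and the lowest gene of each list named. Every list holds genes on both sides of 0; the widest spread in SFN is among alpha-ketoglutarate enzymes, down to -1.80 for IDH1.

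The methyl donor S-adenosylmethionine is made by MAT2A, and its product, which inhibits methyltransferases, is cleared by AHCY. MAT2A stood at 58.24, 58.78 and 66.96 FPKM in control, 89.33, 98.34 and 98.72 in SFN and 98.45, 96.27 and 100.22 in SFN+5-FU. It rose by 0.63 and 0.67 (limma adjusted p = 0.000155 and 6.32e-05), without overlap, as for 31.6% of tested genes in SFN and 45.5% in SFN+5-FU. AHCY rose by 0.18 in both (adjusted p = 0.0382 and 0.0325), calls kept in 8 and 12 of 21 alternatives. Among 10 genes of the methyl donor list, 4 rose and 4 fell in SFN and 6 rose and 4 fell in SFN+5-FU. MTR, on this list, had a mean of 0.79 FPKM in SFN+5-FU and passed the filter through control and SFN (1.637 and 1.153 FPKM). MTRR, which reactivates methionine synthase, rose by 0.72 and 0.81, while AHCYL2, an AHCY-like protein, fell (-0.54 and -0.65).

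TET enzymes need alpha-ketoglutarate and are inhibited by succinate, fumarate and hydroxyglutarate. IDH1, the cytosolic enzyme that makes alpha-ketoglutarate, fell from 41.69, 42.18 and 44.50 FPKM in control to 13.14, 11.02 and 10.75 in SFN and 11.03, 10.78 and 10.33 in SFN+5-FU. The log2 difference was -1.80 (limma adjusted p = 3.43e-06) and -1.90 (adjusted p = 1.48e-06). IDH2, its mitochondrial counterpart, fell (-0.76 and -1.22; adjusted p = 0.00162 and 8.13e-05), and so did PSAT1, which makes alpha-ketoglutarate in serine synthesis (-1.03 and -1.44). IDH3A, of the tricarboxylic acid cycle, rose by 0.60 and 0.70, and GLUD1, which makes alpha-ketoglutarate from glutamate, by 0.48 and 0.75. Of all 18 genes, 7 rose and 5 fell in SFN (9 and 6 without SFN replicate 2) and 6 rose and 6 fell in SFN+5-FU. D2HGDH, which clears hydroxyglutarate, fell (-0.33 and -0.50; adjusted p = 0.0178 and 0.00154; 16 and 19 of 20 alternatives). SDHA fell in SFN+5-FU (-0.56, adjusted p = 0.00121; -0.26, adjusted p = 0.061, in SFN), and FH passed in neither (0.20 and 0.10).

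In SFN+5-FU against SFN, 0 genes of these lists were called by limma. At an unadjusted p of 0.05, reached by 31.4% of all genes tested, the counts were 2 higher and 4 lower of the maintenance partners, 3 and 0 of the readers, 5 and 2 of the repair list, 2 and 1 of the methyl donor list, 2 and 5 of the alpha-ketoglutarate list and 13 and 0 of the G1/S list. PCNA, the most abundant maintenance partner, was 0.36 higher (adjusted p = 0.134). Without SFN replicate 2, the called genes were 3 higher and 5 lower of the partners, 4 and 0 of the readers, 5 and 2 of the repair list, 2 and 2 of the methyl donor list, 5 and 7 of the alpha-ketoglutarate list and 16 and 1 of the G1/S list, against 51.2% of all genes.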

How the data were processed

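The deposited values are gene-level FPKM. Per the submitters' processing notes the tools were fastp, StringTie and edgeR, without versions; the aligner, genome build, annotation and counting strand are not given in sources used here. Libraries were poly(A)-selected and dUTP-stranded, per the labels' protocols. From the FPKM that the authors deposited, log2(FPKM + 1) was computed here, with no further scaling. Genes with a mean of at least 1 FPKM over 9 libraries (12662) entered 1 limma fit (limma 3.58.1, R 4.3.3) with a mean-variance trend, 6 residual degrees of freedom and 3 contrasts. P-values are two-sided and Benjamini-Hochberg adjusted over all genes tested per contrast, and a gene is called at 0.05. TET1 and TET2 were also tested singly by exact permutation (scipy 1.17.1). Limma p-values set a group difference against the spread between libraries within the groups, which includes that of SFN replicate 2.

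Members were matched by Ensembl ID. The members and the 10 other lists were chosen with earlier results of these data known. Named genes were, per list and contrast, the 2 called genes with the largest rise and the 2 with the largest fall, of which some are given by count only, the most abundant where none was called, and 29 genes set by name. The markers named in the library check were chosen after their values were seen, and some genes of the lists are not reported here by name. Alternatives changed the pseudocount, filter, scaling, block, variance model, libraries and GC and length (GENCODE release 29, 12504 genes, 98.8%). The fit was also run on simulated libraries with independent noise and few changed genes. That setting holds no library like SFN replicate 2, so no conclusion is drawn from it here. Promoters are from RefSeq, GRCh38.p14.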

Additional observations from a re-analysis of the deposited data

How the results depend on the processing

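Under 21 alternative analyses, the calls of UHRF1 and DNMT1 (21 of 21) and of DNMT3A and DNMT3B (the 20 that tested them) held in both comparisons with control. Requiring a mean of 5 FPKM left DNMT3A, DNMT3B and TET3 untested, so 0 members were lower there, and fewer genes were called: 3888 for SFN against control (6333 otherwise) and 4903 for SFN+5-FU against control (8387 otherwise). Leaving out 1 library at a time gave 4845 to 7200 and 7287 to 9461 called genes, with 2 members higher and 2 lower each time. For SFN+5-FU against SFN, called genes ranged from 0 to 6478 and members lower from 0 to 1, both highest without SFN replicate 2. There library weights called 7432 genes with 1 member lower, TET3 (-0.26, adjusted p = 0.00381), and the fit to only the 6 libraries compared called 0 genes. Pairing of samples by replicate number was not detected. Of 9 same-number pairs, 1 correlated above 0.1 in deviations from group means (-0.143 to 0.107), and 3 of 9 libraries correlated best with their own number. With 3 libraries a group, these correlations cannot exclude a shared culture. A replicate block called 6038, 8151 and 0 genes and changed no member's call. TET3 in SFN turned to -0.02 with median-of-ratios scaling and ranged from -0.03 (without SFN replicate 3) to 0.07 with 1 library left out, and in SFN+5-FU to 0.09 with the GC and length correction. In SFN+5-FU it passed with library weights (-0.14, adjusted p = 0.0301) and in the 6 libraries compared (-0.16, adjusted p = 0.0486). UHRF1 in SFN+5-FU against SFN turned to -0.02 with quantile normalization and ranged from -0.01 (without SFN replicate 1) to 0.07. The cause of these changes was not tested. Depth is unknown, which limits the low values of TET1 and TET2.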

Other observations

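Genes known as targets of promoter methylation were also read, without any measure of their methylation. Of 24 germline and cancer-testis genes, which methylation commonly silences in somatic cells, 23 were in the table and 4 had a mean of at least 1 FPKM. Their summed level was 10.90 to 18.02 FPKM in control, 8.41 to 11.75 in SFN and 5.86 to 13.14 in SFN+5-FU, with the treated and control ranges overlapping. In SFN limma called 0 of the 4 (0 also at an unadjusted p of 0.05), and in SFN+5-FU CTAG1B (-0.79, adjusted p = 0.0291) and MAGEA3 (-0.49, adjusted p = 0.0294) fell, with 15 and 14 of 20 alternatives keeping the call. Neither was called without control replicate 2, control replicate 3, SFN+5-FU replicate 1 or SFN+5-FU replicate 3, and 1 of the 4 fell in SFN without control replicate 1. Both have near-identical copies, so their values are uncertain.

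Among 25 genes often methylated in colorectal cancer, 21 were in the table and 11 were tested, of which 1 rose (2 without SFN replicate 1) and 6 fell in SFN and 3 rose and 6 fell in SFN+5-FU. Among those tested, CDH13 passed the filter of a mean of 1 FPKM through control (1.97 FPKM, against 0.833 in SFN and 0.77 in SFN+5-FU). SOCS1 passed it through the treated groups (1.707 and 2.673 FPKM, against 0.763 in control). For such genes the filter itself favours a change in that direction. CDKN2A, the cell-cycle inhibitor p16 locus, rose from 11.01 to 11.13 FPKM in control to 13.92 to 15.23 in SFN and 13.98 to 14.50 in SFN+5-FU (limma log2 difference 0.36 and 0.34, adjusted p = 0.00091 and 0.000836). In order of SFN and SFN+5-FU, SFRP5, a secreted Wnt antagonist, fell (-1.40 and -2.18; adjusted p = 0.00273 and 0.000158), and SEPTIN9, whose methylated DNA is a blood marker of this cancer, fell too (-0.92 and -1.35). In SFN, replicate 2 was the lowest library for both. SFRP5 stood there at 24.07, 9.25 and 15.07 FPKM and SEPTIN9 at 33.53, 19.8 and 29.97. IGF2, an imprinted growth factor, fell (-1.17 and -0.81). RASSF1 stood at 11.70 to 12.56 FPKM in control, at 11.20, 46.59 and 13.00 in SFN and at 45.75 to 48.11 in SFN+5-FU, where it rose by 1.86 (adjusted p = 0.00347). Its only high SFN value was replicate 2, and without that library the SFN difference was -0.01 (adjusted p = 0.926). ASCL2, a Wnt-driven crypt factor among the epithelial markers, fell (-1.93 and -2.47), and so did CDH1 (-1.25 and -1.30). Of 8 tested epithelial markers 5 fell in SFN (4 without SFN replicate 2) and 7 in SFN+5-FU, against 22.5% and 28.0% of all tested genes.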
